A study of Mus musculus with 24 samples.

Results

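Transcripts of 10 genes of the BCL2 family were followed in mouse dendritic cells (DCs, antigen-presenting cells that activate T cells) treated with AZD5582. The 10 genes came from a list of symbols that was matched to Ensembl identifiers, and all 10 were found among the 55414 gene lines of the count tables. They comprise 4 pro-survival genes (Bcl2l1, Bcl2, Mcl1 and Bcl2a1b), 4 genes of BH3-only proteins (Bcl2l11, Bbc3, Pmaip1 and Bid) and 2 genes of effector proteins (Bax and Bak1). All 10 passed the filter on low counts in every model.

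AZD5582 is a small molecule of the SMAC mimetic class that antagonises the inhibitor of apoptosis proteins (IAPs). The series asked about an IAP antagonist in cross-presenting DCs and holds 24 libraries of messenger RNA in 8 groups of 3. Cells were grown from bone marrow of wild-type C57BL/6JRj or Cas9-EGFP mice, and which of these each library came from was not given in the sources used here. Cultures named FL here, which the series calls cDC1, received FLT3L at 200 ng/ml, a cytokine that DC progenitors respond to, together with GM-CSF at 20 ng/ml, and were harvested on day 16. Cultures named GM here, which the series calls moDCs, received that dose of GM-CSF alone and were harvested on day 8. FL cultures were sampled after 24 h with AZD5582 at 0.05 µM, after 24 h in the solvent DMSO and at the start (t0). GM cultures were sampled at t0, after 24 h in DMSO and after 24 h with AZD5582 at 0.1, 0.5 or 1 µM. The series calls its triplicates biological replicates, but only the FL libraries carry separate culture numbers in their titles (91, 94 and 95), whereas those of the GM libraries share 1. Culture type, day of harvest and culture number therefore cannot be told apart between FL and GM, and p-values measure only the spread between these libraries, which may in part be technical.

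BCL2 family proteins meet at the outer membrane of mitochondria and decide whether a cell enters apoptosis. Pro-survival members hold the effectors BAX and BAK in check, and BH3-only proteins bind and occupy the pro-survival members or activate the effectors directly. Once active, BAX and BAK permeabilise the membrane and release cytochrome c, which leads to caspase activation, and SMAC, the natural antagonist of IAPs that AZD5582 mimics. DCs are short-lived cells, and members of this family are known regulators of their lifespan.

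Libraries held 27012555 to 85820558 counts in genes. The rarest member, Bcl2, had at least 41 counts in every library. Of 8 listed cDC1 genes, 7 were higher in FL than in GM cultures at t0, and the lineage markers Xcr1 and Clec9a averaged 211 and 113 CPM (gene counts brought to a common library total with TMM scaling) in FL libraries, against 0.14 and 0.83 CPM in GM libraries. These markers were lower after 24 h, when Xcr1 averaged 2.01 CPM at 0.05 µM and 16.4 CPM in DMSO. GM cultures at t0 carried macrophage and monocyte RNA, with 18981 CPM of Lyz2, and all groups held DC genes such as Cd74. The 7 listed DC genes had lower mean sums with the drug, at 10839 CPM at GM 1 µM and 16405 CPM in GM DMSO. In FL cultures they summed to 9709 CPM at 0.05 µM and 13937 CPM in DMSO, with none called. FL libraries also held neutrophil RNA, whose 11 listed genes summed to 171 to 3427 CPM at 0.05 µM, 1922 to 9872 CPM in DMSO and 1255 to 4223 CPM at t0. Lymphocyte genes summed to at most 22.7 CPM in any library. In such bulk RNA, fewer cells of a type and less of an RNA per cell cannot be told apart.

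Promoter windows are shown for Bcl2l1, the member with the largest change in every drug comparison, for Bcl2l11, the member with the largest called change over 24 h in FL cultures, and for 3 near-identical copies of Bcl2a1, which were all called higher at each GM dose. They run from 250 bases before to 50 bases after an annotated start and are from RefSeq (GRCm38.p6). The table held windows for 9 of the 10 members, 14 windows in all. Both strands were searched for the kappaB consensus, the site of NF-kB factors, and for GTAAACA, a site of FOXO factors. The kappaB consensus was found in 8.46% of the 32851 windows of all genes, and among members in 1 of 3 windows of Bcl2l1 and 1 of 3 windows of Bbc3. GTAAACA was found in 3.65% of all windows, and among members in 1 of 2 windows of Bcl2l11 and in another window of Bbc3. In the Bcl2l1 window below, chr2:152830668-152830967 on the minus strand, capitals mark the kappaB match. In the Bcl2l11 window, chr2:128125788-128126087 on the plus strand, capitals mark GTAAACA. Neither window held the other motif, and a match is a description of letters, not a known site.
Bcl2l1: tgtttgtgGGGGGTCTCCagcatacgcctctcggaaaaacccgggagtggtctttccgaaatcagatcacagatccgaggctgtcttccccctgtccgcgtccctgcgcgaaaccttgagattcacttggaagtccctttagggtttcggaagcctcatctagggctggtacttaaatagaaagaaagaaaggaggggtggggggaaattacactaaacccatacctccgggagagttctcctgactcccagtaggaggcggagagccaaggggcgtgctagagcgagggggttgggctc
Bcl2l11: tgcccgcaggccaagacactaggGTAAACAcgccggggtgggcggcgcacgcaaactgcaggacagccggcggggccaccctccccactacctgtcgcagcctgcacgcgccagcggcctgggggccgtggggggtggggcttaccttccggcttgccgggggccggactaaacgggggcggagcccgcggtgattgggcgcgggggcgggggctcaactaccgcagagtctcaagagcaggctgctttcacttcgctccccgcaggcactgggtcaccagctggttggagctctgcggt

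The next 3 windows are those of Bcl2a1b (chr9:89199023-89199322, plus strand), Bcl2a1a (chr9:88956670-88956969, plus strand) and Bcl2a1d (chr9:88731801-88732100, minus strand). Capitals in Bcl2a1a and Bcl2a1d mark bases that differ from Bcl2a1b or lie before its window. Over 256 shared columns, Bcl2a1a differed from Bcl2a1b in 2 and Bcl2a1d in 9, gaps included. None of the 3 held either motif.
Bcl2a1b: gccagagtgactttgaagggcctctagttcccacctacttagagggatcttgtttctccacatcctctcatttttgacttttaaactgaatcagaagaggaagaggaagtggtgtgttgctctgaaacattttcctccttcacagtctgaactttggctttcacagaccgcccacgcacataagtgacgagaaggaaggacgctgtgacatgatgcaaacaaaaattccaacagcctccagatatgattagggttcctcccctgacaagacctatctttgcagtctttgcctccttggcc
Bcl2a1a: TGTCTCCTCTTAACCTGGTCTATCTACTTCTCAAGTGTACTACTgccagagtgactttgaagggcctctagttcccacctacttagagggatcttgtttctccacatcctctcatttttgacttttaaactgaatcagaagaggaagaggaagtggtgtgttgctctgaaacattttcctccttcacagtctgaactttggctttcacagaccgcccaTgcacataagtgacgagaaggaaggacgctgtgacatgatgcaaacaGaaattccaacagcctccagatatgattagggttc
Bcl2a1d: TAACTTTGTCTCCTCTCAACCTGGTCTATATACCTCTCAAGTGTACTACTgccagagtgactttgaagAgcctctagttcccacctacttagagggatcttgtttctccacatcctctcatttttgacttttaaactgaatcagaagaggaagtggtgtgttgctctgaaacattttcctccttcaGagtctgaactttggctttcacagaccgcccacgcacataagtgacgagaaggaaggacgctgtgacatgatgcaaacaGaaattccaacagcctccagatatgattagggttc

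After AZD5582, Bcl2l1 was several times higher in both culture types, and Bcl2a1b was higher in GM cultures. None of the 4 BH3-only members was called higher, and Bik, a BH3-only gene outside the 10 members, is described below. In GM cultures 4 members were higher and 1 lower than in DMSO at 0.1 µM, when 40.3% of 16152 genes were called (19.9% higher and 20.3% lower). At 0.5 µM 3 were higher and 2 lower (53.5% of genes called, 25.8% higher and 27.7% lower), and at 1 µM 4 were higher and 1 lower (55.1% of genes called, 26.9% higher and 28.2% lower). The share of members called was thus near that of all genes at each GM dose. In FL cultures at 0.05 µM 1 member was higher, Bcl2l1, and 1 lower, Pmaip1, when 2.9% of 15961 genes were called (1.62% higher and 1.28% lower). The main FL fits did not pair libraries by culture, and more genes were called with culture as a block (below). Calls are at an adjusted p under 0.05 in edgeR's quasi-likelihood test, adjusted over every gene in the model by the Benjamini-Hochberg method. The scaling of libraries bears on the smaller of these changes. With scaling by library size alone, added after seeing the data, the median log2 change of all genes was -0.10, -0.19 and -0.23 at the 3 GM doses and -0.21 in FL cultures, against -0.01, -0.03, -0.01 and -0.05 with TMM. At 1 µM the calls of all genes were then 2847 higher and 6037 lower, against 4350 and 4549 with TMM. At 0.5 µM they were 3037 and 5571, against 4164 and 4477, and at 0.1 µM 2500 and 3979, against 3220 and 3283. Members called higher and lower were then 3 and 2 at 1 µM, and 2 and 2 at the lower doses.

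**Figure D1:**
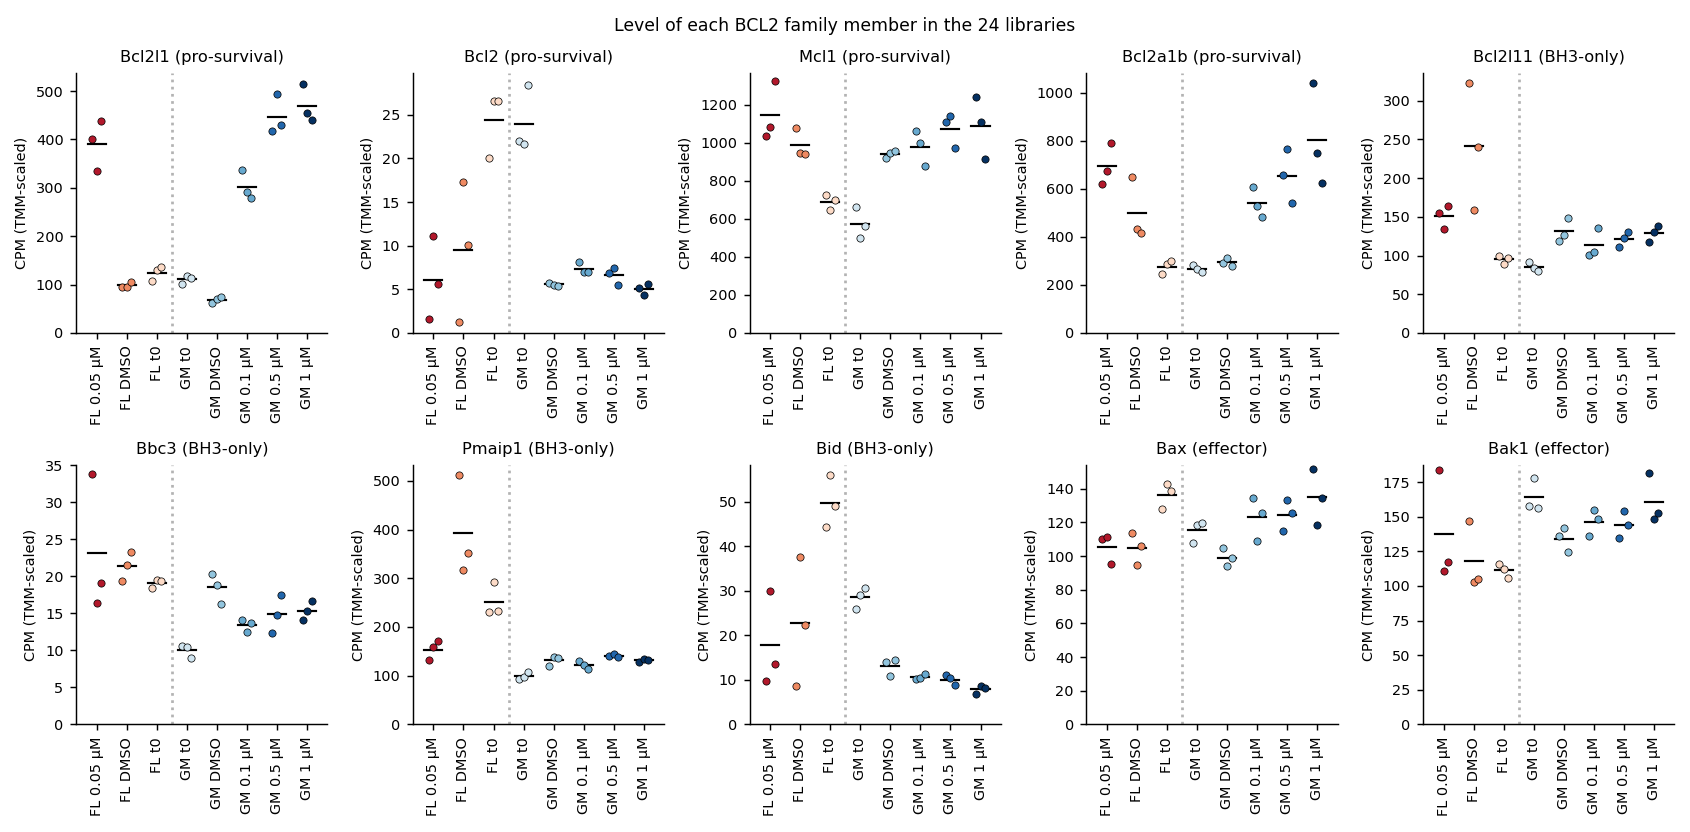
Level of each of the 10 genes in the 24 libraries, in CPM scaled by TMM, with each point a library and each line the mean of 3 libraries; every axis starts at 0. All AZD5582 libraries lie above all others for Bcl2l1, whose lowest treated library had 278 CPM.

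Bcl2l1 (ENSMUSG00000007659) encodes BCL-XL, a pro-survival protein of mitochondria. In GM cultures it had 101, 118 and 113 CPM at t0 and 62.8, 69.4 and 73.7 CPM in DMSO. With AZD5582 it had 337, 292 and 278 CPM at 0.1 µM, 417, 494 and 429 CPM at 0.5 µM, and 514, 454 and 439 CPM at 1 µM. Every treated library was above every DMSO and t0 library, and the 0.5 and 1 µM libraries overlapped. Over DMSO the log2 fold change was 2.15 ± 0.11 (SE) at 0.1 µM (adjusted p = 2.65e-10), 2.704 ± 0.11 at 0.5 µM (adjusted p = 6.72e-12) and 2.79 ± 0.11 at 1 µM (adjusted p = 2.98e-12). The step of 0.56 ± 0.10 between 0.5 and 0.1 µM passed the test (adjusted p = 0.00161), and Bcl2l1 was the only member for which it did, when 11.4% of genes were called (2.98% higher and 8.47% lower). It did not pass with all 24 libraries in 1 model (adjusted p = 0.056, the highest of 14 alternatives, the others being as low as 3.08e-06). Between 1 and 0.5 µM the difference was 0.09, with a 95% interval of -0.13 to 0.31.

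In FL cultures 91, 94 and 95, Bcl2l1 had 401, 334 and 439 CPM at 0.05 µM, against 95.5, 95.7 and 105 CPM in DMSO. At t0 it had 108, 129 and 136 CPM. The groups with and without drug did not overlap, and the log2 fold change over DMSO was 1.99 ± 0.17 (adjusted p = 0.00288), with 2.07, 1.80 and 2.06 in the 3 cultures. In the same cultures 10 genes of DC maturation summed to 32225, 16533 and 22809.5 CPM at 0.05 µM and to 21742, 7919 and 9647 CPM in DMSO, higher in each culture. Of these edgeR called 1 higher and DESeq2 4, and 6 had an unadjusted p under 0.05. Of 8 cDC1 genes edgeR called 3, all lower, and DESeq2 4, and 7 had an unadjusted p under 0.05. Their median log2 change was -1.96. The sum of the list went the other way, at 1556 to 3653 CPM at 0.05 µM and 921 to 1593 CPM in DMSO, so it does not reflect the median gene. The part of both lists in these changes was not tested. Bcl2l1 passed in all alternatives run for these 4 comparisons with DMSO, 14 for each GM dose and 15 for FL. In the order of group means, GM 1 µM (469 CPM), GM 0.5 µM (447), FL 0.05 µM (391) and GM 0.1 µM (303) each shared part of their range with the next. No library at GM 0.1 µM overlapped the next group. FL t0 (124), GM t0 (111) and FL DMSO (98.7) overlapped in turn, and GM DMSO was lowest at 68.6 CPM, so that means spanned 6.83-fold. The response at 0.05 µM in FL minus that at 0.1 µM in GM, doses that differ, was -0.08 (95% interval -0.44 to 0.29).

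Bcl2a1b (ENSMUSG00000089929) encodes a BCL2A1 protein, a pro-survival member of blood cells and a known target of NF-kB. GM libraries had 282, 267 and 256 CPM at t0, 292, 314 and 277 CPM in DMSO, and 606, 530.5 and 484 CPM at 0.1 µM. It had 656, 766 and 543 CPM at 0.5 µM and 1042, 748 and 626 CPM at 1 µM. All treated libraries were above all GM libraries without drug, and libraries of neighbouring doses overlapped. The highest, replicate 1 of 1 µM, also had 8.04% of its gene counts in mitochondrial genes, against 3.96% and 4.27% in replicates 2 and 3, and 16.4% of its reads in no gene, against 12.9% and 13.1%. With 18550 genes detected it had the fewest of the GM libraries. Without it Bcl2a1b at 1 µM changed by 1.23 and Bcl2l1 by 2.71, and the part of these signs in its values was not tested. Log2 fold changes over DMSO were 0.88 ± 0.16, 1.16 ± 0.16 and 1.47 ± 0.16 at 0.1, 0.5 and 1 µM (adjusted p = 0.000222, 8.03e-06 and 4.29e-07), and each passed in all 14 alternatives. FL cultures 91, 94 and 95 had 621, 676 and 789 CPM at 0.05 µM and 651, 434 and 418 CPM in DMSO, groups that overlapped through culture 91. The log2 change of 0.48 ± 0.23 did not pass (adjusted p = 0.333). Without the DMSO library of culture 91 it was 0.79 (adjusted p = 0.0249), and without all libraries of that culture 0.86 (adjusted p = 0.00951), the lowest of 15 alternatives that reached 0.683.

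The values of Bcl2a1b are uncertain in 2 ways. Its transcript was 97.9% identical to that of Bcl2a1a and 93.9% identical to that of Bcl2a1d, with identical runs of up to 217 bases, so reads could be assigned to another copy or set aside. In addition, 49.1% of its exon bases lie in the exons of Gm29094 on the same strand in the annotation used. All 3 copies were called higher at each GM dose, and at 1 µM Bcl2a1a had a log2 fold change of 1.26 ± 0.14 and Bcl2a1d of 1.77 ± 0.18 (adjusted p = 5.87e-07 and 3.1e-07). Over 24 h in GM cultures the copies had changes of both signs, none called. Bcl2a1d averaged 172 CPM in DMSO and 206 CPM at t0 (-0.19 ± 0.18, adjusted p = 0.403), and Bcl2a1a 158 CPM in DMSO and 148 CPM at t0 (0.17 ± 0.14, adjusted p = 0.341).

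Mcl1 (ENSMUSG00000038612), which encodes a short-lived pro-survival protein, differed little with the drug. It averaged 575 ± 81 CPM at t0 in GM cultures (SD, n = 3 here and below), 943 ± 19 CPM in DMSO, and 979 ± 94, 1075 ± 89 and 1090 ± 164 CPM at 0.1, 0.5 and 1 µM. At 1 µM the change over DMSO was 0.23 (95% interval -0.04 to 0.50, adjusted p = 0.141), but 0.35 without replicate 3 of 1 µM (adjusted p = 0.0311, in a range of 0.0311 to 0.941). In FL cultures it averaged 1148 ± 155 CPM at 0.05 µM and 989 ± 76 CPM in DMSO, a change of 0.22 with an interval of -0.18 to 0.63. The larger difference lay between DMSO and t0, described below.

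Bcl2 (ENSMUSG00000057329), the founding pro-survival gene, was scarce after 24 h. Of its exon bases 6.09% lie under D630008O14Rik on the other strand. GM libraries had 22.0, 21.6 and 28.4 CPM at t0, against 5.75, 5.52 and 5.41 CPM in DMSO. At 0.1 µM it had 8.09, 6.97 and 7.02 CPM, a log2 change of 0.41 ± 0.15 over DMSO (adjusted p = 0.0348). That call was lost without any 1 of the 6 libraries compared (adjusted p = 0.0515 to 0.137) and was kept in 5 of 14 alternatives (0.0197 to 0.718). At 0.5 and 1 µM the changes were 0.25 ± 0.15 and -0.12 ± 0.15 and did not pass (adjusted p = 0.17 and 0.536). FL cultures 91, 94 and 95 had 1.59, 11.1 and 5.58 CPM at 0.05 µM, 1.27, 17.3 and 10.1 CPM in DMSO and 20.1, 26.6 and 26.6 CPM at t0. Culture 91 was lowest in each of these groups, and the change with drug was 0.32, -0.63 and -0.86 in the 3 cultures (adjusted p = 0.761).

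Pmaip1 (ENSMUSG00000024521) encodes NOXA, a BH3-only protein that binds MCL1. In FL cultures 91, 94 and 95 it had 131, 158 and 171 CPM at 0.05 µM, against 512.5, 316 and 351 CPM in DMSO. At t0 it had 231, 293 and 233 CPM. All 3 treated libraries lay below all DMSO and t0 libraries, and the change over DMSO was -1.36 ± 0.24 (adjusted p = 0.027), with -1.97, -0.997 and -1.04 in the 3 cultures. With culture as a block it was -1.34 (adjusted p = 0.0257). The call was lost without the 0.05 µM library of culture 91 (adjusted p = 0.0936), 94 (0.0574) or 95 (0.12), without the DMSO library of culture 95 (0.0902) and with the 2 compared groups alone (0.112), in a range over 15 alternatives of 8.34e-06 to 0.12. In the same cultures the neutrophil genes summed to 171, 3427 and 356 CPM at 0.05 µM and to 1922, 9872 and 3963 CPM in DMSO. Of these 11 genes edgeR called 0 and DESeq2 2, and 3 had an unadjusted p under 0.05, while 5 of 13 macrophage and monocyte genes were lower and 1 higher. All 11 neutrophil genes had a group mean above 0, and the part of both lists in the change of Pmaip1 was not tested.

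In GM cultures Pmaip1 stayed near its DMSO level. It had 120, 138 and 136 CPM in DMSO, 131, 121 and 114 CPM at 0.1 µM, 140, 143 and 138 CPM at 0.5 µM and 127, 134 and 133 CPM at 1 µM. The change at 1 µM was 0.02, with an interval of -0.16 to 0.20 (adjusted p = 0.872). The response at 0.05 µM in FL minus that at 0.1 µM in GM was -1.18 ± 0.22 (adjusted p = 0.00996). Pmaip1 was the only member for which this difference passed, when 1.67% of 17262 genes were called (0.967% higher and 0.707% lower). It passed in 19 of 20 alternatives, the exception being the fit to the compared groups alone (adjusted p = 0.142, in a range of 6.23e-05 to 0.142).

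Bcl2l11 (ENSMUSG00000027381) encodes BIM, a BH3-only protein that in mice limits the number of lymphoid and myeloid cells. In FL cultures 91, 94 and 95 it had 155, 134 and 164 CPM at 0.05 µM, against 323, 159 and 240 CPM in DMSO, and the treated library of culture 95 lay above the DMSO library of culture 94. It was lower with the drug in each culture, by log2 values of -1.06, -0.25 and -0.55, but the change of -0.68 ± 0.26 did not pass (adjusted p = 0.212). It passed in 1 of 15 alternatives, all 24 libraries in 1 model (adjusted p = 0.018, in a range of 0.018 to 0.425), and was -0.32 without the DMSO library of culture 91. Its GM means were 131 ± 16 CPM in DMSO, 114 ± 19 CPM at 0.1 µM, 121 ± 10 CPM at 0.5 µM and 129 ± 11 CPM at 1 µM. The change at 1 µM was -0.01 (95% interval -0.24 to 0.23, adjusted p = 0.959). At 0.1 µM it was -0.20 (adjusted p = 0.162), or -0.35 without replicate 3 of that dose (adjusted p = 0.0212, in a range of 0.0212 to 0.498). The log2 ratio of Bcl2l1 to Bcl2l11 per kilobase of exon was 2.18, 2.13 and 2.23 in FL cultures at 0.05 µM, against -0.95, 0.07 and -0.39 in DMSO.

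Bbc3 (ENSMUSG00000002083) encodes PUMA, a BH3-only protein and known p53 target. Its GM means were 18.5 ± 2.1 CPM in DMSO, 13.5 ± 0.8 CPM at 0.1 µM, 14.9 ± 2.6 CPM at 0.5 µM and 15.3 ± 1.3 CPM at 1 µM. The change was -0.45 ± 0.13 at 0.1 µM (adjusted p = 0.0076) and -0.31 ± 0.13 at 0.5 µM (adjusted p = 0.0449), while -0.25 ± 0.13 at 1 µM did not pass (adjusted p = 0.099). At 0.1 µM the call was kept in 13 of 14 alternatives (0.0038 to 0.0556). At 0.5 µM the call was lost without replicate 1 or 2 of DMSO (adjusted p = 0.184 and 0.106) or of 0.5 µM (0.206 and 0.113), and was kept in 5 of 14 alternatives (0.00902 to 0.206). At 1 µM a call was gained without replicate 3 of DMSO (-0.34, adjusted p = 0.0425, in a range of 0.00876 to 0.315). FL cultures 91, 94 and 95 had 33.9, 16.4 and 19.04 CPM at 0.05 µM and 19.3, 21.5 and 23.3 CPM in DMSO, and culture 91 went up where 94 and 95 went down.

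Bid (ENSMUSG00000004446) encodes the BH3-only protein that caspase-8 cleaves, which links death receptors to mitochondria. In GM cultures it had 14.0, 10.7 and 14.6 CPM in DMSO, 10.2, 10.3 and 11.4 CPM at 0.1 µM, 11.02, 10.3 and 8.81 CPM at 0.5 µM, and 6.84, 8.53 and 8.20 CPM at 1 µM. The 1 µM libraries were below every other GM library. The change over DMSO was -0.29 ± 0.13 at 0.1 µM (adjusted p = 0.0896), -0.38 ± 0.13 at 0.5 µM (adjusted p = 0.0225) and -0.72 ± 0.14 at 1 µM (adjusted p = 0.000204). The call at 1 µM was kept in 13 of 14 alternatives (1.89e-06 to 0.0807). At 0.5 µM it was kept in 10 of 14 alternatives (0.00461 to 0.325). Among others it was lost there without replicate 1 or 3 of DMSO (adjusted p = 0.0876 and 0.0906) or replicate 3 of 0.5 µM (0.118). At 0.1 µM a call was gained without replicate 2 of DMSO (-0.42, adjusted p = 0.0211, in a range of 0.0211 to 0.52). Of its exon bases 17.7% lie under Bcl2l13 on the other strand, and the strand setting of the counting was not given. In FL cultures 91, 94 and 95 Bid had 9.82, 30.01 and 13.4 CPM at 0.05 µM, against 8.64, 37.5 and 22.2 CPM in DMSO, a change of -0.33 ± 0.52 (adjusted p = 0.799).

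The effectors Bax (ENSMUSG00000003873) and Bak1 (ENSMUSG00000057789) varied least, with group means that spanned 1.38-fold and 1.47-fold. Bax averaged 99.1 ± 5.2 CPM in GM DMSO libraries, 123 ± 13 CPM at 0.1 µM, 125 ± 9 CPM at 0.5 µM and 135 ± 17 CPM at 1 µM. Its changes of 0.32 ± 0.10, 0.33 ± 0.10 and 0.46 ± 0.10 passed (adjusted p = 0.0161, 0.00902 and 0.000671), the last in all 14 alternatives. At 0.1 µM the call of Bax was lost, among others, without replicate 1 or 3 of that dose (adjusted p = 0.0954 and 0.0561) or replicate 2 of DMSO (0.0703), and at both lower doses with scaling by library size (adjusted p = 0.0607 and 0.123). It was kept in 9 of 14 alternatives at 0.1 µM (0.00582 to 0.13) and in 12 of 14 at 0.5 µM (0.00159 to 0.123). Bak1 averaged 134 ± 9 CPM in GM DMSO libraries and 161 ± 18 CPM at 1 µM, a change of 0.28 ± 0.10 (adjusted p = 0.0212). That call was kept in 8 of 14 alternatives (0.00646 to 0.711). Among others it was lost without replicate 1 of 1 µM, the library with the highest share of mitochondrial counts (adjusted p = 0.104), or replicate 3 of DMSO (0.0901), and with scaling by library size, where the change was 0.04 (adjusted p = 0.711). In FL cultures the changes at 0.05 µM were 0.02 for Bax (95% interval -0.32 to 0.35) and 0.22 for Bak1 (-0.32 to 0.76). In the annotation used, 12.2% of the exon bases of Bax lie in Gm45808 on the same strand. Of those of Bak1, 18.2% and 7.35% lie under separate entries named Ggnbp1 on the other strand.

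**Figure D2:**
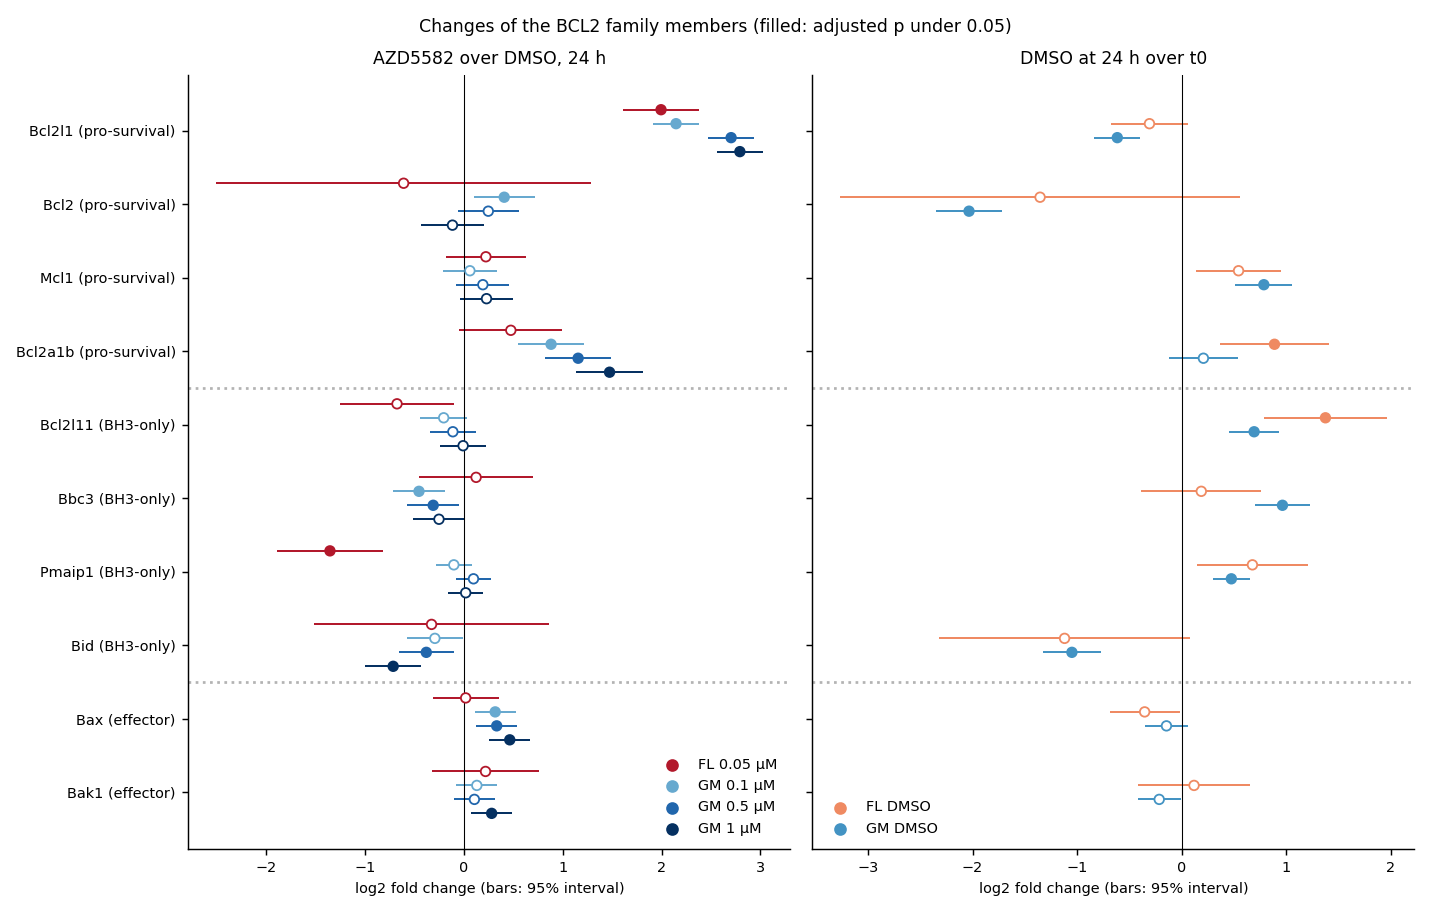
Log2 fold change of each member with its 95% interval, for AZD5582 over DMSO (left) and for DMSO at 24 h over t0 (right), with filled points at an adjusted p under 0.05. Bcl2l1 is furthest right in all 4 drug comparisons, between 1.99 and 2.79, and Pmaip1 is the member furthest left in FL cultures.

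The drug changes of the GM cultures went with other differences in their RNA. At 1 µM all 13 macrophage and monocyte genes were lower, with a summed level of 4091 to 5275 CPM at 1 µM and 28071 to 34128 CPM in DMSO. All 11 neutrophil genes were lower too, with sums of 38.4 to 84.8 CPM at 1 µM and 766 to 948 CPM in DMSO. All 10 genes of DC maturation were higher, with sums of 23504 to 27043 CPM at 1 µM and 6175 to 7592 CPM in DMSO, and all 8 genes of dividing cells were lower. Of 7 DC genes 5 were lower and 2 higher, with sums of 9522 to 12986 CPM at 1 µM and 14371.5 to 18100 CPM in DMSO. Of the neutrophil markers, Elane had 0 counts at 1 µM, and none of the macrophage markers was at 0. The part of these differences in the changes of the BCL2 family was not tested.

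Culture for 24 h in DMSO went with a change of most members in GM cultures, the BH3-only members other than Bid higher and Bcl2 lower. In GM cultures 4 members were higher and 3 lower in DMSO than at t0, when 47.5% of genes were called (27.2% higher and 20.3% lower). The higher ones were the BH3-only genes Bbc3 (0.96 ± 0.13, adjusted p = 5.84e-06), Bcl2l11 (0.69 ± 0.11, 6.07e-05) and Pmaip1 (0.48 ± 0.09, 0.000168) with Mcl1 (0.79 ± 0.13, 6.66e-05). The lower ones were Bcl2 (-2.03 ± 0.15, adjusted p = 3.57e-09), Bid (-1.05 ± 0.13, 3.32e-06) and Bcl2l1 (-0.62 ± 0.11, 0.000104). These 7 passed in all 14 alternatives. With scaling by library size Bax and Bak1 were also called lower (-0.31 and -0.38, adjusted p = 0.00795 and 0.00184), so that 4 members were higher and 5 lower, and all genes were 3186 higher and 4534 lower, against 4398 and 3280 with TMM. In the same libraries all 8 genes of dividing cells were lower, with sums of 227 to 284 CPM in DMSO and 1234 to 1494 CPM at t0, and 8 of 10 maturation genes were higher. Of 13 macrophage and monocyte genes 9 were higher and 2 lower, with sums of 28071 to 34128 CPM in DMSO and 19974 to 25320 CPM at t0. The part of these 3 lists in the changes of the members was not tested.

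In FL cultures 2 members were higher in DMSO than at t0 and none lower, when 10.1% of genes were called (4.96% higher and 5.18% lower). In cultures 91, 94 and 95 the maturation genes summed to 21742, 7919 and 9647 CPM in DMSO, against 4431, 4977 and 5281 CPM at t0, with 3 of 10 called higher and 9 at an unadjusted p under 0.05. Genes of dividing cells summed to 147, 770 and 478 CPM in DMSO, against 1123, 1039 and 1071 CPM at t0, with none of 8 called in edgeR, 1 in DESeq2 and 3 at an unadjusted p under 0.05. In DMSO culture 91 thus had the most maturation RNA and the least RNA of dividing cells, and it was also the highest for Bcl2l11 and Bcl2a1b and the lowest for Bid and Bcl2. Of 7 DC genes 3 were lower and none higher, with mean sums of 13937 CPM in DMSO and 25465 CPM at t0. Of 8 cDC1 genes 1 was higher and 2 lower (7 at an unadjusted p under 0.05), with mean sums of 1277 and 3344 CPM. Neutrophil genes summed to 1922, 9872 and 3963 CPM in DMSO and 1255, 4223 and 2071 CPM at t0, with none called. The part of these lists in the changes below was not tested. Bcl2l11 had 323, 159 and 240 CPM in DMSO of cultures 91, 94 and 95, against 99.8, 88.8 and 96.9 CPM at t0, a change of 1.38 ± 0.26 (adjusted p = 0.0218). The groups did not overlap, and the call was lost without any 1 of the 3 t0 libraries (adjusted p = 0.0772 to 0.0982, in a range over 15 alternatives of 3.61e-05 to 0.0982). Bcl2a1b had 651, 434 and 418 CPM in DMSO and 247, 285 and 298 CPM at t0, a change of 0.89 ± 0.23 (adjusted p = 0.0454). It was kept in 6 of 15 alternatives (0.00163 to 0.175) and lost without any t0 library (0.122 to 0.175), without the DMSO library of culture 91 (0.0613) or 95 (0.0595), or without culture 91 as a whole (0.0585). Bid had 8.64, 37.5 and 22.2 CPM in DMSO and 44.4, 55.9 and 49.0 CPM at t0, lower in each culture by -2.36, -0.58 and -1.14. Its change of -1.12 ± 0.53 did not pass (adjusted p = 0.195) but did with culture as a block (-1.35, adjusted p = 0.0306, in a range of 0.0229 to 0.349). Bcl2 changed by -3.98, -0.62 and -1.39 in the 3 cultures and did not pass either (adjusted p = 0.317, with the block 0.0554).

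**Figure D3:**
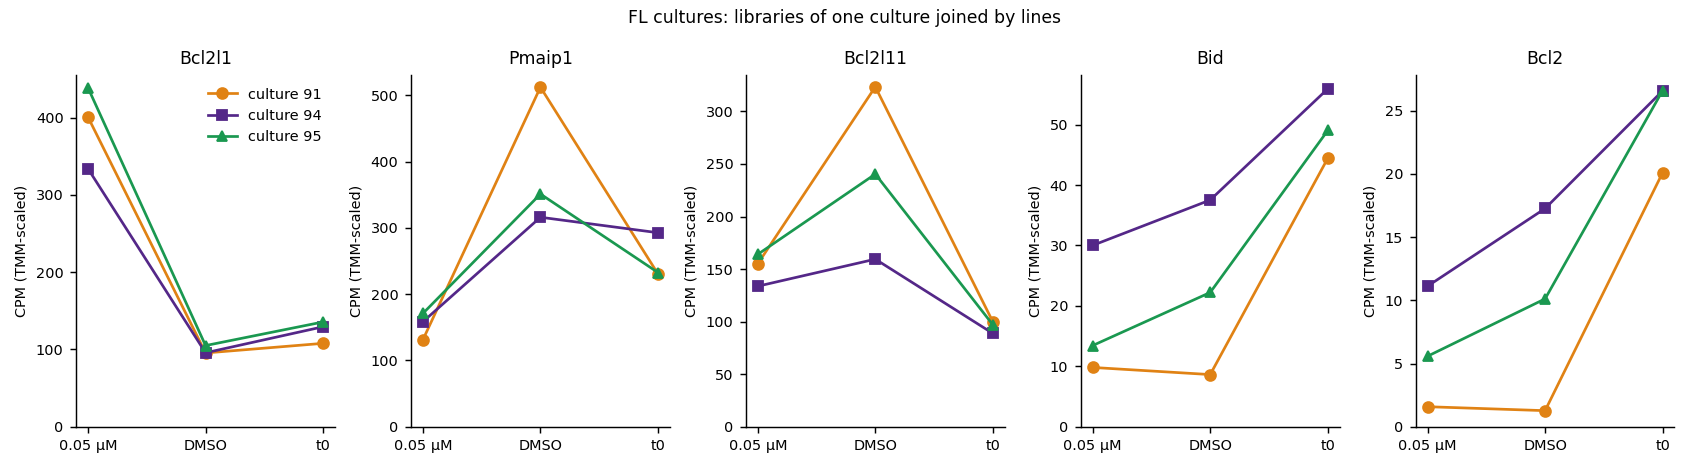
Levels of 5 members in the FL cultures in CPM scaled by TMM, at 0.05 µM, in DMSO and at t0, with lines joining the libraries of culture 91, 94 or 95. In each culture Bcl2l1 is higher and Pmaip1 lower at 0.05 µM than in DMSO, and in DMSO culture 91 has the most Pmaip1 and Bcl2l11 and the least Bid and Bcl2.

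The change over 24 h was not shown to differ between FL and GM cultures for any member, when 4.84% of genes were called (0.881% higher and 3.96% lower). At an unadjusted p under 0.05 there were 3 members, Bbc3, Bcl2l11 and Bcl2a1b, with differences of -0.79, 0.67 and 0.67 (adjusted p = 0.107, 0.168 and 0.176), and DESeq2 called none. Without the DMSO library of FL culture 94 the difference of Bcl2l11 was 0.90 (adjusted p = 0.0196, in a range of 0.0196 to 0.326). Without FL culture 91, left out after seeing the data, 2 were called, Bcl2 (1.05, adjusted p = 0.0334, in a range of 0.0334 to 0.991) and Bbc3 (-0.77, adjusted p = 0.0141, in a range of 0.0141 to 0.25). Among GM doses, no member differed between 1 and 0.5 µM, nor did any of 16152 genes in edgeR, while 870 genes, Bcl2 and Bid among them, had an unadjusted p under 0.05 and DESeq2 called 8 genes, none a member.

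Between culture types, the BH3-only gene Pmaip1 was higher in FL cultures both at t0 and in DMSO. At t0 2 members were higher and 1 lower in FL than in GM cultures, when 40.9% of 17262 genes were called (23.4% higher and 17.5% lower). Pmaip1 had 231, 293 and 233 CPM in FL libraries, against 93.3, 97.1 and 108 CPM in GM libraries, a difference of 1.38 ± 0.16 (adjusted p = 7.28e-07). Bbc3 had 18.5, 19.5 and 19.3 CPM in FL libraries, against 10.6, 10.4 and 8.95 CPM in GM libraries, a difference of 0.97 ± 0.19 (adjusted p = 0.000422). Neither pair of groups overlapped, and both genes passed in all 13 alternatives. Bak1 was lower by -0.52 ± 0.17 (adjusted p = 0.0168), a call lost without replicate 2 of GM t0 (0.0667) or FL culture 95 at t0 (0.0546), in a range of 0.000184 to 0.0667. Bid at 49.8 ± 5.8 CPM in FL and 28.5 ± 2.5 CPM in GM libraries did not pass (0.84 ± 0.36, adjusted p = 0.067), nor did Mcl1 (0.30 ± 0.14, adjusted p = 0.0955), which passed without replicate 1 of GM t0 (0.42, adjusted p = 0.0466, in a range of 0.0261 to 0.335). Without FL culture 91 Bid (0.92, adjusted p = 0.00388) and Bax (0.33, adjusted p = 0.0217) were also called, in ranges of 0.000419 to 0.174 and 0.0165 to 0.228.

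In DMSO 4 members were higher in FL than in GM cultures and none lower, when 41.4% of genes were called (20% higher and 21.4% lower). These were Pmaip1 (1.56 ± 0.16, adjusted p = 1.77e-07), Bcl2l11 (0.86 ± 0.19, 0.00107), Bcl2a1b (0.75 ± 0.19, 0.00364) and Bcl2l1 (0.50 ± 0.12, 0.00293). Bcl2l11 did not pass with the compared groups alone (adjusted p = 0.0546, in a range of 1.48e-05 to 0.0546), and the other 3 passed in all 13 alternatives. Without the DMSO library of FL culture 91, Bcl2 (1.24, adjusted p = 0.0309), Bid (1.13, 0.00645) and Bak1 (-0.43, 0.0375) were called as well, which were at 0.73, 0.76 and -0.20 with it, in ranges of 0.000169 to 0.994, 0.000817 to 0.651 and 0.00232 to 0.687. With scaling by library size the median difference of all genes was 0.17 at t0 and 0.16 in DMSO, against 0.09 and 0.01 with TMM. Calls of all genes were then 4441 higher and 2438 lower at t0, against 4033 and 3026, and 4205 and 2582 in DMSO, against 3460 and 3687. Of the listed genes 12 of 13 macrophage and monocyte genes were lower and 8 of 11 neutrophil genes higher in FL than in GM cultures at t0, and 1 neutrophil gene was lower. Macrophage and monocyte genes summed to 911 to 1014 CPM in FL and 19974 to 25320 CPM in GM libraries, and neutrophil genes to 1255 to 4223 CPM in FL and 895 to 1005 CPM in GM libraries. Of 8 mast cell and basophil genes 7 were higher in FL cultures at t0, with sums of 221 to 905 CPM in FL and 45.4 to 63.5 CPM in GM libraries, and 9 of 10 maturation genes were higher. In DMSO all 8 mast cell and basophil genes were higher (610 to 1639.7 CPM in FL and 96.5 to 153 CPM in GM libraries), as were 9 of 11 neutrophil and 7 of 10 maturation genes, while 12 of 13 macrophage and monocyte genes were lower. The part of these lists in the differences of the BCL2 family was not tested.

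To set roles against each other, the CPM of each gene was divided by its exon length in kilobases and summed over the 4 pro-survival and the 4 BH3-only members. The log2 ratio of the sums was 3.74, 3.75 and 3.92 in FL cultures 91, 94 and 95 at 0.05 µM, against 2.24, 2.41 and 2.21 in DMSO and 2.19, 1.99 and 2.32 at t0. In GM cultures it was 3.28, 3.08 and 3.02 at t0, 3.15, 3.11 and 2.99 in DMSO, and 4.01, 3.93 and 3.73 at 0.1 µM. It was 4.04, 4.15 and 3.75 at 0.5 µM and 4.65, 4.16 and 3.89 at 1 µM. In both culture types every AZD5582 library lay above every library without the drug, and DMSO and t0 overlapped. All FL libraries without drug lay below all GM libraries.

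Behind the ratio stand the sums themselves, in CPM by library size per kilobase. In FL cultures the pro-survival sum averaged 1260 ± 217 at 0.05 µM and 998 ± 51 in DMSO, a log2 ratio of the means of 0.34, and the BH3-only sum 90.02 ± 12.7 at 0.05 µM and 205 ± 19 in DMSO, a log2 ratio of -1.19. In GM cultures the pro-survival sum averaged 1212 at 1 µM and 657 in DMSO (0.88), and the BH3-only sum 64.3 at 1 µM and 77.5 in DMSO (-0.27). Bcl2a1b made up 55.2% to 69.6% of the pro-survival sum in the group means, Mcl1 22.9% to 42.4% and Bcl2 at most 0.50%. Bcl2l1 made up 6.72% at 0.05 µM and 2.39% in DMSO of FL cultures, and 7.42% at 1 µM and 2.30% in DMSO of GM cultures. Pmaip1 made up 60.8% to 75.2% of the BH3-only sum, so the level of the ratio rests mostly on Bcl2a1b, Mcl1 and Pmaip1. Of these, Mcl1 changed little with the drug, while Bcl2a1b, whose counts are uncertain (above), rose most of the pro-survival members in both culture types. In GM cultures Mcl1 averaged 276 at 1 µM and 278 in DMSO, Bcl2l1 88.8 and 15.1, and Bcl2a1b 847 and 363. In FL cultures Mcl1 averaged 333 at 0.05 µM and 315 in DMSO, Bcl2l1 83.7 and 23.7, and Bcl2a1b 843 and 657. Pmaip1 had the largest fall of the BH3-only members there, with 55.9 at 0.05 µM and 154 in DMSO. In GM cultures Pmaip1 averaged 42.0 at 1 µM and 48.5 in DMSO. The ratio was not tested, since the members were chosen with earlier results known.

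**Figure D4:**
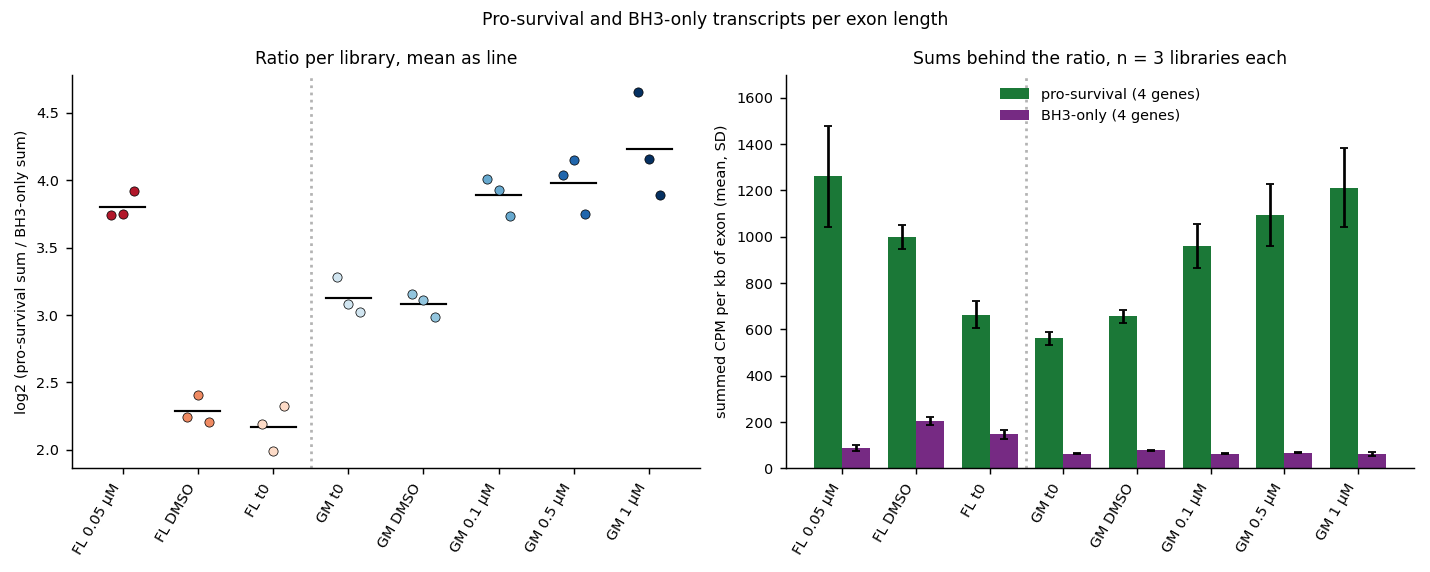
Left, log2 ratio of the pro-survival to the BH3-only sum in each library, with the mean of 3 as a line; right, the 2 sums in CPM per kilobase of exon (bars, mean; error bars, SD, n = 3 libraries). AZD5582 libraries lie at 3.73 or above and FL libraries without drug at 2.41 or below.

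Other genes of the pathway were taken as 3 further lists. Among 15 other family members, of which 12 could be tested in GM cultures, 5 were higher and 2 lower at 1 µM than in DMSO, when 55.1% of all genes were called. Those with the largest changes were Bnip3 (-1.89 ± 0.35), a BH3-like gene induced by low oxygen, Bcl2a1d (above) and Bik (1.52 ± 0.46), a BH3-only gene at only 0.65 CPM at 1 µM and 0.24 CPM in DMSO. Of 14 genes of the apoptosome and caspases 5 were higher and 4 lower, among them the nuclease gene Endog (-1.34 ± 0.23) and the mitochondrial protease gene Htra2 (1.26 ± 0.08). Htra2 averaged 197 CPM at 1 µM and 83.4 CPM in DMSO. Of 21 upstream regulators 15 were higher and 5 lower, among them E2f1, a cell cycle regulator (-2.04 ± 0.12), and Rel, an NF-kB subunit (1.51 ± 0.15), which averaged 653 CPM at 1 µM and 232 CPM in DMSO. Trp73, of the p53 family, had 0.747 to 1.01 CPM at 1 µM, against 0 to 0.0665 CPM in DMSO. The shares called, 7 of 12, 9 of 14 and 20 of 21, compare with 55.1% of all genes, near which the first 2 lists lie. The medians of the 3 lists were 0.26, 0.00 and 0.45, against -0.01 over all genes tested.

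In FL cultures none of these 3 lists had a call at 0.05 µM in edgeR's quasi-likelihood test, with 13, 14 and 21 genes tested. That fit did not pair libraries by culture, and calls of the lists were not taken from the fit with culture as a block. At an unadjusted p under 0.05 there were 2 other family members, 2 genes of the apoptosome and caspases and 4 upstream regulators, and DESeq2 called 0, 1 and 4. Their medians were 0.10, 0.01 and 0.29, against -0.05 over all genes tested. For DMSO against t0 in GM cultures the 3 lists had 3 higher and 1 lower, 3 higher and 5 lower, and 9 higher and 2 lower, when 47.5% of all genes were called. In FL cultures they had 2 and 0, 1 and 3, and 1 and 1, when 10.1% were called.

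For 1 member of each role, the genes whose log2(CPM + 1) followed it most closely over the 24 libraries were sought among 8434 protein-coding genes, with Pearson's r as a description of libraries that share groups and scaling. For Bcl2l1 these were Zwint (r = 0.977), Rhof (0.973) and Slc25a1 (0.961). Rhof averaged 74.1 CPM at 0.05 µM and 26.2 CPM in DMSO of FL cultures, and 108 CPM at 1 µM and 27.1 CPM in DMSO of GM cultures. For Bcl2l11 they were Resf1 (0.903), Dusp5 (0.874) and Gstt3 (0.872), and for Bax Ciapin1 (0.839), Nubp1 (0.813) and Psmc4 (0.808). Dusp5, a phosphatase gene, averaged 196 CPM at 0.05 µM, 411 CPM in DMSO and 177 CPM at t0 in FL cultures.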

How the data were processed

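Messenger RNA of 24 libraries was measured by RNA sequencing. Per the labels' protocols, RNA was isolated with RNeasy kits, had a RIN above 8 and was sequenced on a NovaSeq6000 after a TruSeq Stranded mRNA preparation. Per the submitters' processing notes the authors used STAR 2.7.3a, HTSeq 0.12.4 and DESeq2 1.30.1 with GRCm39; strand setting and annotation release were not given in the sources used here. The deposited values are raw counts per gene, not normalised. Lines that name no gene took 10.98% to 16.4% of the reads and were left out of library sizes and tests. Mitochondrial genes took 1.38% to 8.04% of gene counts, and 18178 to 20534 genes were detected. No pair of libraries was identical.

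Symbols and exon lengths were taken by Ensembl identifier from GENCODE M21 (GRCm38), which matched 52133 of 55414 identifiers, so lengths and overlaps are of an earlier build than the counts. Groups were compared in edgeR 4.0.16 (R 4.3.3, limma 3.58.1) with TMM scaling, filterByExpr and a robust quasi-likelihood fit of group means without covariates. The models held 15 GM libraries (16152 genes, biological coefficient of variation 0.146), 9 FL libraries (15961 genes, 0.390) or, for FL against GM, all 24 (17262 genes, 0.272). The last shared its estimate of spread between culture types that vary by different amounts. Its p-values can be too small where a difference rests on FL libraries. SE is the absolute log2 fold change over the root of F. The threshold for a call was an adjusted p of 0.05. Levels are CPM scaled by TMM over 24 libraries, and sums per kilobase use CPM by library size, whose scale cancels in ratios. The fits were tested on simulated data with known changes, drawn with a common spread for all genes and with independent libraries. The simulation thus held neither the gene-wise spread nor the pairing of the FL data, and cannot vouch for the fits under these.

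FL libraries of 1 culture carry its number in their titles and deviated together: all 9 same-numbered pairs had a correlation of deviations over 0.1 (0.187 to 0.832), so culture number pairs them. The main FL fits did not use this pairing, and counts with culture as a block are given below. Alternatives were other scalings, DESeq2 1.42.0, no filter, other sets of libraries, a replicate block, summed Bcl2a1 copies and leaving out each library. The members, lists and tests were chosen with earlier results of these data known. The text names all 10 members, the Bcl2a1 copies, up to 3 called genes of each further list with the largest change at 1 µM in GM or 0.05 µM in FL cultures, and the 3 genes most like 1 member per role at a mean of at least 10 CPM; marker genes, Rhof and Dusp5 levels and genes under an unadjusted threshold were added after seeing values. One gene that the rule names is not reported here.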

Additional observations from a re-analysis of the deposited data

Results flagged for a closer look

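The response of Pmaip1 to AZD5582 differed between culture types in a test of the difference itself. The difference was -1.18 ± 0.22 on the log2 scale for FL cultures at 0.05 µM minus GM cultures at 0.1 µM, with all 24 libraries in 1 model (edgeR's quasi-likelihood test, adjusted p = 0.00996). In the separate models of each culture type the responses were -1.36 ± 0.24 in FL and -0.10 ± 0.09 in GM cultures. The model of all 24 libraries shares its estimate of spread between culture types that varied by 0.390 (FL) and 0.146 (GM). Its SE is thus below that of the FL response alone, and its p-value may be too small. With the compared groups alone the difference did not pass (adjusted p = 0.142). Pmaip1 was lower with the drug in 3 of 3 FL cultures. The doses differ, and so do the day of harvest and the culture numbers, so that dose and culture type cannot be told apart in this difference.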

How the results depend on the processing

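Over 33 alternative settings, 1635 of 1800 member values kept their direction and side of the threshold, 59 lost a call, 41 gained one, 65 changed sign with no call in either setting, and none reversed a call. Scaling by library size and leaving out all libraries of FL culture 91 were chosen after seeing the data. The causes of the differences below were not tested.

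Members called: with all 24 libraries in 1 model there were 2, 2 and 3 at GM 0.1, 0.5 and 1 µM, 0 between 0.5 and 0.1 µM and 6 for FL DMSO against t0. With the compared groups only there were 1 for FL 0.05 µM, 1 for FL DMSO against t0, 5 for FL against GM at t0 and 0 for the difference of the AZD5582 response. FL DMSO against t0 gave 1 with no filter, 1 with the Bcl2a1 copies summed and 4 with DESeq2, and FL against GM at t0 gave 5 with DESeq2 or library-size scaling. Leaving out replicates gave 3 to 4 at GM 0.1 µM, 3 to 4 at GM 0.5 µM, 1 to 3 at FL 0.05 µM, 0 to 2 for FL DMSO against t0, 2 to 5 for FL against GM at t0, 4 to 7 in DMSO and 0 to 2 for the difference of the 24 h change.

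Genes called: all 24 libraries gave 3874 at GM 0.1 µM, 85 between 0.5 and 0.1 µM, 2721 at FL 0.05 µM and 5307 for FL DMSO against t0. DESeq2 gave 1526 at FL 0.05 µM, 3503 for FL DMSO against t0, 8 between GM 1 and 0.5 µM and 633 for the response difference. The compared groups only gave 31, 582, 3866 for FL against GM in DMSO, 261 for the 24 h difference and 17 for the response difference. No filter gave 77 between GM 1 and 0.5 µM, 503 for the 24 h difference and 187 for the response difference. Leaving out replicates gave 1062 to 1737 between 0.5 and 0.1 µM, 0 to 1 between 1 and 0.5 µM, 17 to 2283 at FL 0.05 µM, 13 to 1708 for FL DMSO against t0, 486 to 2596 for the 24 h difference and 93 to 800 for the response difference, the highest at FL 0.05 µM and for both differences being without FL culture 91. At FL 0.05 µM there were also 1983 without the DMSO library of culture 91, 133 and 17 without that of 94 and 95, and 156 and 32 without the treated library of 91 and 95. FL DMSO against t0 had 13, 232 and 13 without the t0 library of 91, 94 and 95, and 998 and 790 without the DMSO library of 91 and 95.

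With culture number as a replicate block, genes called were 1098 at FL 0.05 µM, 3107 for FL DMSO against t0, 1685 for the 24 h difference and 738 for the response difference. Without it they were 463, 1619, 835 and 289. The call of Bid stands in the report, and no other FL member call changed. GM titles share 1 culture number, followed by a number from 1 to 3 that recurs in each GM group. What that second number stands for is not stated. Of same-numbered GM pairs 21 of 30 had a correlation over 0.1 (median 0.15), against 3 of 60 differently numbered pairs (median -0.09). All 15 GM libraries correlated best with their own number, so titles and data both link same-numbered GM libraries, which the main fits did not pair. Of the comparisons made, all 3 pairs were over 0.1 for 0.5 against 0.1 µM and for 1 µM against DMSO, where the block gave 2177 and 9113 genes, against 1849 and 8899 without it. With the block in GM cultures Bbc3 at 0.5 µM lost its call (adjusted p = 0.0528), and no other member call changed.

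The log2 ratio of pro-survival to BH3-only sums, with Bcl2a1a and Bcl2a1d added, was 4.62, 3.17 and 3.10 in FL cultures at 0.05 µM, in DMSO and at t0, and 3.98, 3.76, 4.71, 4.81 and 5.08 in GM cultures at t0, in DMSO and at 0.1, 0.5 and 1 µM. Without division by length it was 2.69, 1.26 and 1.43, and 2.13, 2.16, 2.81, 2.93 and 3.05. In both, AZD5582 groups stood above DMSO in their culture type, but without division by length DMSO stood below t0 in FL cultures. All members had at least 41 counts in each library. In FL cultures, however, the DMSO libraries were the shallowest, and the part of depth in the FL comparisons was not tested.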
